A study of Mus musculus with 2 samples.

Results

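The genes described here are 10 genes of cadherins, desmosomes and epithelial junctions: Cdh1, Cdh3, Jup, Dsp, Pkp1, Pkp2, Pkp3, Dsc2, Dsg2 and Perp. They were chosen by gene name from the 54680 loci of a gene expression table, and all 10 were found in it. The table came from RNA sequencing of total RNA from CT26, a mouse colon cancer cell line. In the group called shSetdb1, a lentivirus carried a short hairpin RNA against Setdb1, a histone H3 lysine 9 methyltransferase. In the group called shCtrl, cells labelled wild type received a lentivirus with the empty knockdown vector. Both cultures were kept in RPMI medium with serum and collected with trypsin after 6 days, a time the labels tie to a change of phenotype in the knockdown cells. The labels call the shSetdb1 cells differentiated, a state that was not tested here. There was 1 library in each group, so no difference below has a replicate check, and every statement is about these 2 libraries. The labels do not say whether the knockdown cells were a clone or a pool.

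Epithelial cells hold to each other through cadherins, membrane proteins that bind the same kind of protein on the next cell. Inside the cell, classical cadherins at adherens junctions bind beta-catenin or plakoglobin, which connect through alpha-catenin to actin. At desmosomes, the desmosomal cadherins (desmogleins and desmocollins) bind plakoglobin and plakophilins, which connect through desmoplakin to keratin filaments. E-cadherin and the desmosomal proteins are standard markers of colon epithelium.

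Cdh1, Dsp, Dsc2, Dsg2 and Perp, 5 of the 10 genes, had 0 reads in both libraries. Plakoglobin (Jup) was the most abundant member in both libraries, at 7.86 FPKM in shCtrl and 27.2 FPKM in shSetdb1. Pkp3 went from 0.945 to 2.79 FPKM, and the other 3 members with reads (Pkp1, Pkp2 and Cdh3) stayed under 1 FPKM. FPKM is the number of sequenced fragments scaled by gene length and depth, so levels can be compared between genes. In bulk RNA, fewer cells with a transcript and less of it per cell cannot be told apart.

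**Figure D1:**
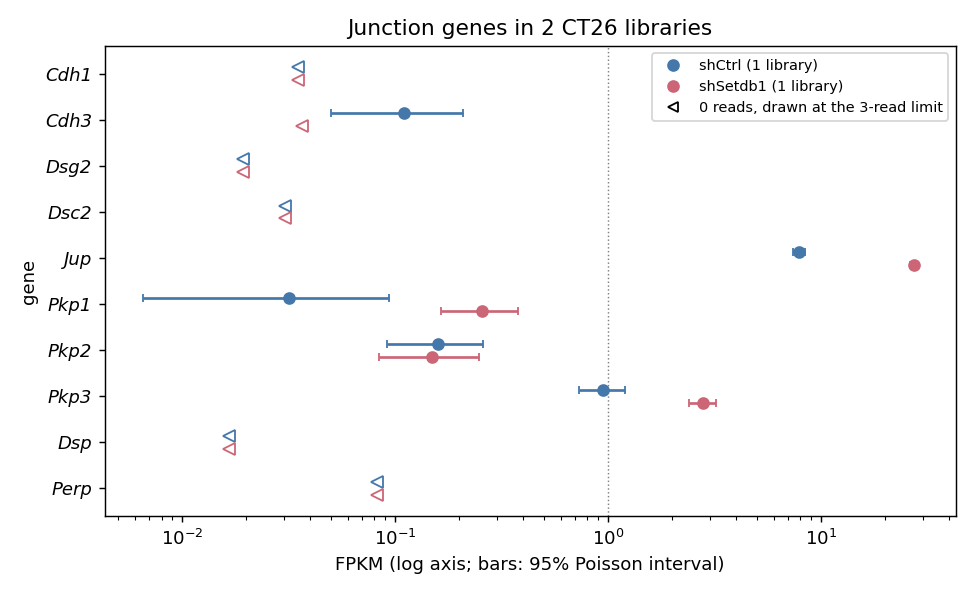
FPKM of the 10 genes on a log axis, with 1 filled point per library, 95% Poisson intervals as bars, and open triangles at the 3-read limit where a library had 0 reads. The dotted line marks 1 FPKM. Jup is to the right of it in both libraries and Pkp3 in shSetdb1, while 5 genes have triangles in both libraries.

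Setdb1 itself had 1340 reads in shCtrl and 317 in shSetdb1, a read ratio of 0.229 with a counting interval of 0.202 to 0.259, although its model overlaps other genes with reads. The libraries held 18421604 reads (shCtrl) and 19045830 reads (shSetdb1). A read ratio here is the gene's share of reads in shSetdb1 over that in shCtrl, with a 95% exact binomial (Clopper-Pearson) interval. These intervals and the 3-read limits cover counting error only, not the spread between cultures, since there was 1 library per group. Reads from PCR copies are not independent molecules, so the intervals may be too narrow even for counting error. A log2 ratio is that of (FPKM + 1), shSetdb1 over shCtrl, and it understates changes at low levels. A gene was called higher or lower when (FPKM + 1) differed by 2-fold or more and the gene reached 1 FPKM in either library. By this rule 6.81% of 10671 genes were higher in shSetdb1 and 4.85% were lower.

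The cell line label was set against defining markers. Of 21 genes of epithelial identity, 1 reached 1 FPKM. This was Sfn (14-3-3 sigma), with 49 reads in shCtrl and 40 in shSetdb1. Epcam, named here after its values were seen, had 0 reads in both libraries. The other 20 genes of that list summed to 55 reads in shCtrl and 64 in shSetdb1. Of 14 intestinal genes, 2 reached 1 FPKM, both higher in shSetdb1, namely Krt20, a keratin of differentiated intestinal cells (5.07 and 35.6 FPKM), and Cdh17, described below. Of 9 fibroblast markers, 4 reached 1 FPKM, with log2 ratios from -0.56 for Col1a2 to 0.89 for Pdgfra, and Col1a2 was at 140 FPKM in shCtrl and 94.1 in shSetdb1. Pdgfra reached 1 FPKM in shSetdb1 but not in shCtrl (0.501 FPKM). The other 5 fibroblast genes summed to 24 reads in shCtrl and 33 in shSetdb1. Of 9 leukocyte markers, 1 reached 1 FPKM: the lysosomal protein gene Cd68, with 245 and 2360 reads. The other 8 leukocyte genes summed to 24 and 25 reads, and the pan-leukocyte gene Ptprc, named after its values were seen, had 0 and 4. The list of 6 endothelial markers summed to 1 read in shCtrl and 0 in shSetdb1. Standard epithelial markers were thus largely absent in both libraries of a line labelled as colon cancer.

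The classical cadherins among the members were near or at 0. Cdh1 (ENSMUSG00000000303, chromosome 8, 106603351 to 106670246 in GRCm38) encodes E-cadherin, the main cadherin of epithelial adherens junctions. It had 0 reads in both libraries. For its length of 4574 bases the 3-read limit is 0.0350 FPKM, and the Poisson interval reaches 0.0431 FPKM. Cdh3 (chromosome 8, 106510891 to 106557297) encodes P-cadherin and ends 46.1 kb before Cdh1. It had 9 reads in shCtrl (0.110 FPKM, Poisson interval 0.0501 to 0.208) and 0 in shSetdb1. Its share of reads in shSetdb1 was therefore lower, and the counting interval of the fold begins at 2.04. With 3 reads put in place of the 0, the fold would be 3.10, a value that leaves out the counting error of the 9 reads. With so few reads, Cdh3 was at a trace level in shCtrl and under the 3-read limit of 0.0365 FPKM in shSetdb1.

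The desmosomal cadherins of the members, desmocollin 2 (Dsc2) and desmoglein 2 (Dsg2), are the forms found in simple epithelia, and both lie on chromosome 18. Each had 0 reads in both libraries, with 3-read limits of 0.0304 FPKM for Dsc2 and 0.0194 FPKM for Dsg2. Desmoplakin (Dsp, ENSMUSG00000054889, chromosome 13, 38151294 to 38198577), the plaque protein that anchors keratin filaments, also had 0 reads in both. Its gene model of 9659 bases is the longest of the 10, so its limit, 0.0166 FPKM, is the lowest. Perp (chromosome 10, 18845020 to 18857073), a tetraspan membrane protein needed for desmosomes in skin and a p53 target, had 0 reads in both, with a limit of 0.0820 FPKM. Having no reads in either library was common in the table: it held for 8285 of 22046 protein-coding genes, or 37.6%. A change of these 5 genes that stayed below their upper Poisson limits was not detectable at this depth. The highest of these limits was 0.101 FPKM, for Perp.

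The members with reads were, apart from Cdh3, all genes of armadillo-repeat proteins, the family of beta-catenin. Jup (ENSMUSG00000001552, minus strand of chromosome 11, 100368958 to 100397763) encodes plakoglobin, which binds classical and desmosomal cadherins alike. It had 947 reads in shCtrl and 3279 in shSetdb1. This gave a read ratio of 3.35 (interval 3.11 to 3.60) and a log2 ratio of 1.67. Jup was the 1 member called higher, beside the background of 6.81%, and 0 members were called lower. Among the 10671 genes at 1 FPKM or more, 201 had a higher log2 ratio than Jup. Jup gave 91.1% (exact binomial interval 89.3 to 92.8) of all reads of the 10 genes in shCtrl and 93.5% (92.6 to 94.3) in shSetdb1.

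Pkp3 (ENSMUSG00000054065, chromosome 7, 141078218 to 141090510) encodes plakophilin 3, a desmosomal plaque protein of most epithelia. It had 64 reads in shCtrl and 189 in shSetdb1, a read ratio of 2.86 with an interval of 2.14 to 3.85. Its log2 ratio of 0.96 was just under the 2-fold threshold. With a pseudocount of 0.1 FPKM in place of 1 it was 1.47, past the threshold, under a rule that called 10.6% of all genes higher and 8.15% lower. Pkp3 reached 1 FPKM in shSetdb1 but not in shCtrl, so it entered the counts through the library where it was high. The read intervals of Jup and Pkp3 overlapped, and Jup was 8.31 times as abundant per length as Pkp3 in shCtrl and 9.75 times in shSetdb1.

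The other plakophilins were at trace levels. Pkp1 (chromosome 1, 135871395 to 135919207), the plakophilin of stratified epithelia, had 3 reads in shCtrl and 24 in shSetdb1. Its read ratio was 7.74, with a wide interval of 2.35 to 40.1, and its level in shSetdb1 was 0.255 FPKM (Poisson interval 0.163 to 0.379). Pkp2 (chromosome 16, 16213318 to 16272712), the plakophilin of simple epithelia and heart muscle, had 16 reads in shCtrl and 15 in shSetdb1. Its read ratio of 0.907 had an interval of 0.418 to 1.96, which includes 1. So the 3 plakophilins did not move alike: the read intervals of Pkp1 and Pkp3 lay above 2, and that of Pkp2 spanned 1 and did not reach 2.

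By level, the order in shCtrl was Jup, Pkp3, Pkp2, Cdh3 and Pkp1. The Poisson intervals of Pkp2 (0.0911 to 0.259 FPKM) and Cdh3 (0.0501 to 0.208) overlapped, as did those of Cdh3 and Pkp1 (0.00657 to 0.0932), so the order of these 3 was not settled by counting. In shSetdb1 the order was Jup, Pkp3, Pkp1 and Pkp2. There the intervals of Pkp1 (0.163 to 0.379) and Pkp2 (0.0836 to 0.246) overlapped too. Jup and Pkp3 stood apart from each other and from the rest in both libraries. The 2 members at 1 FPKM or more had a median log2 ratio of 1.32, beside -0.00039 for all 10671 genes, and the median over all 10 members was 0. Of the 2 members, Pkp3 passed the filter through shSetdb1 alone, where it was high, which favours a ratio above 0.

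**Figure D2:**
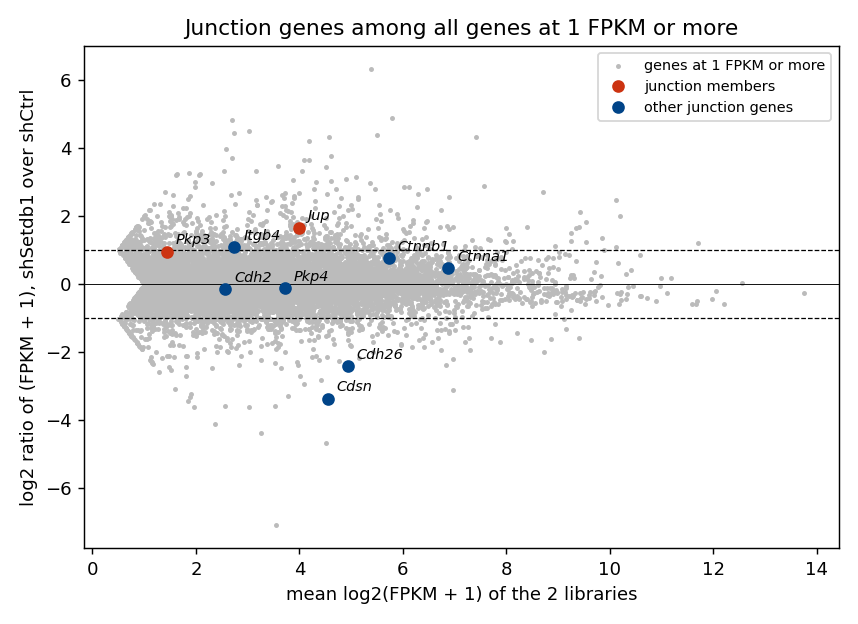
Log2 ratio of (FPKM + 1), shSetdb1 over shCtrl, against the mean log2(FPKM + 1) for the 10671 genes at 1 FPKM or more (grey), with dashed lines at 2-fold. Jup is above the upper line at 1.67 and Pkp3 just under it at 0.96; other junction genes are marked in blue, with Cdsn and Cdh26 below the lower line.

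Promoter windows were examined for only 2 of the 10 genes, which does not mean that the others lack one. The sequences of Jup and Dsp were taken from the RefSeq table of GRCm38.p6. They are the member with most reads and a desmosomal partner with 0 reads, and both are shown. Dsc2 and Dsg2, desmosomal cadherin genes that also had 0 reads, were left out of this step. Dsp does not stand for them. Each runs 5′ to 3′ on the gene's strand from 250 bases before the annotated start to 20 bases after it. Capitals mark CACCTG or, on the other strand, CAGGTG, an E-box form that SNAI and ZEB repressors of Cdh1 are known to bind.
Jup, chr11:100397771-100398040, minus strand: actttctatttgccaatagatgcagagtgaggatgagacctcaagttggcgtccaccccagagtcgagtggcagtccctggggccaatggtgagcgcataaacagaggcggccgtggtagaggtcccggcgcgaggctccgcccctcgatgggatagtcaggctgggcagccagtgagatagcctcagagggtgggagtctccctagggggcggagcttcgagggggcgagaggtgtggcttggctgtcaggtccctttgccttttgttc
Dsp, chr13:38151044-38151313, plus strand: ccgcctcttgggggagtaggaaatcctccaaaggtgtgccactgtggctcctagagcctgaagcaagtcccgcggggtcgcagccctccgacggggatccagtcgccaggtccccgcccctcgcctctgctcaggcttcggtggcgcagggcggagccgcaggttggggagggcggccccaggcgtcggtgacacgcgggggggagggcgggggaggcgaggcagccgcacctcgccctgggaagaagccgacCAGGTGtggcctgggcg
The search covered both strands of the full window, which ends 50 bases after the start. The Dsp window held 1 match, whose first base is position 4 counted from 1 at the start, and the Jup window held 0. Of all 32851 windows of 300 bases in the table, 20.2% held this motif. The palindrome AACCGGTT, a form bound by grainyhead-like factors, was in 0.146% of windows and in 0 of these 2. Both windows were rich in CpG pairs, with 14 for Jup and 27 for Dsp against a median of 7 over all windows. The match is a description of these letters and does not show that a factor binds there.

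Other cadherins were expressed, some at higher levels than any member. Of 37 other cadherin superfamily genes, 8 reached 1 FPKM, of which 1 was called higher and 2 lower, with a median log2 ratio of -0.14. Cdh26, a cadherin known from inflamed epithelium, had 3903 reads in shCtrl and 691 in shSetdb1, a read ratio of 0.171 (0.158 to 0.186). Fat1, a giant protocadherin, had 4494 and 2046 reads, a ratio of 0.440 (0.418 to 0.464). Cdh17, the liver-intestine cadherin, had 21 and 131 reads, a ratio of 6.03 (3.79 to 10.1), and like Pkp3 it reached 1 FPKM in shSetdb1 but not in shCtrl. Cdh2 (N-cadherin), named after its values were seen, was at 5.24 FPKM in shCtrl and 4.63 FPKM in shSetdb1. N-cadherin was therefore above Cdh1 and Cdh3, the classical cadherins among the members, in both libraries.

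The list of 12 other desmosome and cornified-envelope genes had 2 at 1 FPKM, and the median of their log2 ratios was -1.73. Cdsn (corneodesmosin, a secreted protein of skin desmosomes) was called lower, at 73.5 FPKM in shCtrl and 6.28 FPKM in shSetdb1. Its 3689 and 315 reads gave a ratio of 0.0826 (0.0734 to 0.0927), so it differed in the opposite direction to Jup. Pkp4, a plakophilin relative found at several junction types, had 1355 and 1248 reads and a log2 ratio of -0.11. The other 10 genes, including all other desmogleins and desmocollins listed, summed to 13 reads in shCtrl and 17 in shSetdb1.

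Partners of cadherins and nectins at adherens junctions were expressed in both libraries. Of 20 adherens junction partners, 12 reached 1 FPKM, and 0 were called higher or lower. Their log2 ratios had a median of 0.31 and ran from -0.24 for Afdn (afadin, which links nectins to actin) to 0.89 for Lima1 (an actin-binding protein), with 9 above 0 and 3 below. Beta-catenin (Ctnnb1), named after its values were seen, was at 39.4 FPKM in shCtrl and 68.1 in shSetdb1, with a read ratio of 1.67 (1.61 to 1.74), and its model overlaps Ulk4. Plakoglobin can take the place of beta-catenin on cadherins. Ctnnb1 was 5.01 times as abundant per length as Jup in shCtrl and 2.50 times in shSetdb1.

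Among 41 tight junction genes, 11 reached 1 FPKM, of which 0 were called higher and 1 lower, with a median log2 ratio of -0.36. The lowest was Pard3, a polarity protein, with 1477 and 571 reads. Of 13 gap junction genes, 3 reached 1 FPKM. Gja1 (connexin 43) was called lower, with 997 and 386 reads. Of 9 hemidesmosome genes, which attach epithelial cells to the basement membrane, 6 reached 1 FPKM and Itgb4 (integrin beta 4) was called higher, with 468 and 1152 reads, though its model overlaps another gene with reads. The lowest was Dst, with 2685 and 1128 reads and a log2 ratio of -0.86. These few calls fell in both directions, beside 6.81% of all 10671 genes called higher and 4.85% called lower.

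Repressors of Cdh1 were expressed in both libraries. Of 11 listed, 9 reached 1 FPKM; their log2 ratios had a median of -0.04, and 1 was called in each direction. Snai1 had 254 reads in shCtrl and 617 in shSetdb1, while Snai2 had 363 and 63. Cdh1 had 0 reads beside both of these opposite values, and their part in its level was not tested.

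**Figure D3:**
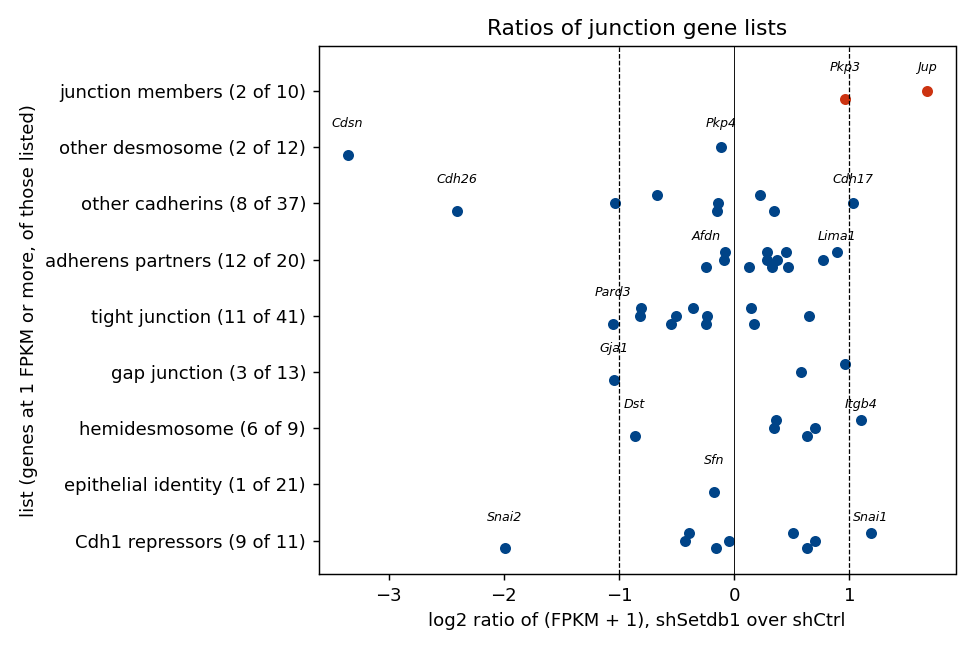
Log2 ratio of (FPKM + 1), shSetdb1 over shCtrl, for each gene at 1 FPKM or more (1 point per gene), by list, with the lowest gene of each list named and, except for the tight and gap junction lists, the highest. Dashed lines mark 2-fold. The 2 junction members at this level are at 0.96 and 1.67, and Pkp3 is shown because it reached 1 FPKM in shSetdb1 alone. A direction above 0 is not particular to the members. Of adherens partners 9 are above 0 and 3 below, and of hemidesmosome genes 5 and 1. Of tight junction genes 3 are above 0 and 8 below, and of gap junction genes 2 and 1. The few calls of the other lists fall in both directions, beside 6.81% of all genes called higher and 4.85% lower.

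The neighbours of the members within 30 kb were looked at after the values were seen, to show how the surrounding genes stood. No gene model with reads overlapped any of the 10 members. For Jup, 5 neighbours reached 1 FPKM. Hap1, which lies 12.8 kb beyond its 3′ end, had 59 reads in shCtrl and 231 in shSetdb1, a ratio of 3.79 (2.83 to 5.13). It reached 1 FPKM in shSetdb1 but not in shCtrl (0.836 FPKM), so it was counted through the library where it was high. The pseudogene Gm10039, on the same side and nearer to Jup at 6.83 kb, had a ratio of 0.650 (0.607 to 0.695). On the 5′ side, P3h4, Fkbp10 and Nt5c3b had read ratios of 1.18, 1.05 and 1.01. The nearest neighbour on the 3′ side was thus lower in shSetdb1 and the next one higher. Sigirr, which ends 0.665 kb from Pkp3, had a ratio of 1.44 (1.36 to 1.54), and Tnnt2, 19.1 kb from Pkp1, had 2.46 (2.09 to 2.90). Near Cdh3, an unnamed locus 19.3 kb before it had 61 reads in shCtrl and 13 in shSetdb1, a ratio of 0.206 (0.104 to 0.379), and was at 1 FPKM or more in shCtrl alone. Gm10073, which lies between Cdh3 and Cdh1, had 583 and 393 reads, a ratio of 0.652 (0.572 to 0.742). Both of these neighbours had lower read shares in shSetdb1, and Cdh3 itself had 9 reads against 0. The unnamed locus, at a log2 ratio of -1.43, met the rule for lower, as did 4.85% of all 10671 genes. Gm10073, at -0.56, did not. A shared direction in this region was not tested. The members with 0 reads also had expressed neighbours: Tango6 lies 12.8 kb after Cdh1, with 358 and 344 reads, and Snrnp48 lies 6.36 kb after Dsp, with 151 and 198.

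**Figure D4:**
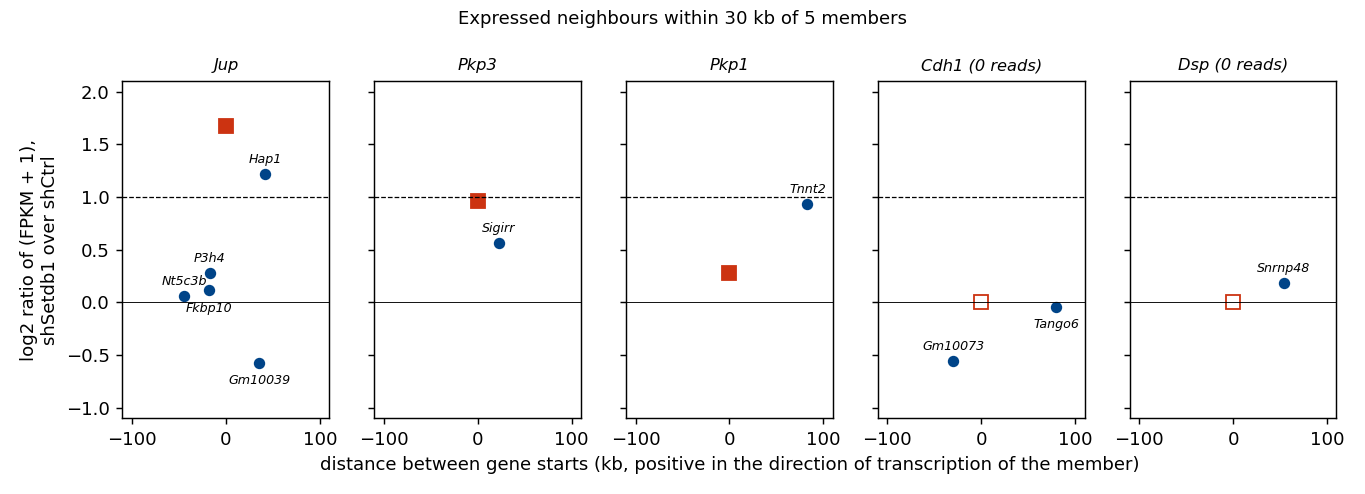
Log2 ratio of (FPKM + 1), shSetdb1 over shCtrl, for 5 members (red squares, open where both libraries had 0 reads) and for genes within 30 kb at 1 FPKM or more (blue), against the distance between gene starts in kb. The dashed line marks 2-fold, which Hap1 passes in the panel of Jup, at 1.22.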

How the data were processed

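RNA of 2 CT26 cultures, 1 per group, was sequenced from libraries made with a NEBNext Ultra kit, per the labels' protocols. The authors deposited FPKM values with gene model lengths and positions, per the file headers. CASAVA, HISAT2 and featureCounts 1.5.0-p3 and the build GRCm38 are named in the submitters' processing notes; the strand setting is not given in the sources used here. The models of all 10 members were identical in GENCODE M21 on GRCm38. Reads were recovered as FPKM times length over a common step, and 100% of values in both libraries were whole within 0.001. Both columns had been divided by 1 depth of 18731117 reads, so log2 ratios carry the 1.03 ratio of the totals, and read ratios do not.

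From these values, log2 ratios of (FPKM + 1), read ratios with exact binomial intervals and Poisson intervals were computed. No p-value was computed, since neither group had a second library. The members and the 12 other lists were chosen with earlier results of these data known. Genes named outside the members were those called in each list and the highest and lowest of each list at 1 FPKM; others are said to be named after their values were seen. Of the genes under this rule, 2 are not reported here. For a symbol with more than 1 locus, the one with the highest read sum was taken. Alternatives were 4 scalings, a 0.1 FPKM pseudocount, a filter at 5 FPKM or none, thresholds of 1.5-fold and 4-fold, read ratios and protein-coding genes only. The Poisson intervals, the share of genes with 0 reads and the neighbours were added after seeing the data. The calculations were tested on simulated data. Tools were scipy 1.17.1, numpy 2.4.6, pandas 2.3.3 and matplotlib 3.10.9 under Python 3.11.15.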

Additional observations from a re-analysis of the deposited data

How the results depend on the processing

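No paired analysis was possible because there was 1 library per group, which also left no library to omit. Scaling by the median ratio, the upper quartile, the sum without the 100 highest genes or own read totals left every count of members and the log2 ratios of all 10 members within counting error. Depth limits the members under 1 FPKM, whose summed reads were 28 in shCtrl and 39 in shSetdb1.

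Of members called higher there were 2 (Jup and Pkp3) with a pseudocount of 0.1 or a 1.5-fold threshold and 0 at 4-fold. Over all genes, 727 were higher and 518 lower; these counts became 1134 and 870 with the pseudocount of 0.1, 1804 and 1523 at 1.5-fold, and 116 and 56 at 4-fold. The pseudocount of 0.1 gave log2 ratios of 1.78 for Jup, 1.47 for Pkp3, -1.07 for Cdh3 and a member median of 1.62. On read ratios, log2 values were 1.51 for Pkp3 and 2.95 for Pkp1. The member median was 0 without a filter and 1.67, Jup alone, with the filter at 5 FPKM.

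For the other lists, 252 of 292 alternative values kept within counting error or 1.5 times the count. With the filter at 5 FPKM, 2 medians reversed, to 0.51 for Cdh1 repressors and -0.0370 for gap junction genes, as fewer genes were left. The medians at 5 FPKM also moved to -0.41 for cadherins (cadherins called higher: 0) and for fibroblast markers, -0.50 for tight junction, 0.63 for hemidesmosome and 2.59 for intestinal genes (1 called higher). Without a filter the medians were 0.12 for adherens partners, 0.34 for hemidesmosome genes and 0 for cadherin, desmosome, tight junction, gap junction, intestinal, fibroblast and leukocyte genes, as most added genes had few reads. The pseudocount of 0.1 gave medians of -0.47 for tight junction and 2.52 for intestinal genes, 2 Cdh1 repressors, 1 gap junction gene and 1 fibroblast marker higher, and 1 hemidesmosome gene lower. At 1.5-fold, 2 adherens partners, 3 Cdh1 repressors, 3 hemidesmosome genes, 1 tight junction gene, 1 gap junction gene and 1 fibroblast marker were higher, and 3 tight junction genes and 1 hemidesmosome gene were lower. At 4-fold, 0 Cdh1 repressors, cadherins and hemidesmosome genes and 1 intestinal gene were higher, and 1 cadherin and 0 tight junction, gap junction and Cdh1 repressor genes were lower. Other than by construction of the setting, the cause was not tested.

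Genes called higher made up 58.4% of the called genes, and between 53.1% and 58.6% under the 4 scalings, which shifted the median of the log2 ratios, over genes that reached 1 FPKM in both, by at most 0.0510.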
